A study of Mus musculus with 3 samples.

Results

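Among the EZH2-bound regions of mouse bone marrow-derived macrophages were 347 broad regions that were shared by untreated and LPS-stimulated cells. A region was taken when it lay in the deposited list of merged EZH2 regions on chromosomes 1 to 19, X or Y, met an interval of each library by at least 1 bp, and was at least 5000 bp wide. These 347 were 3.55% of all 9785 merged regions, 8.62% of the 4027 shared ones and 14.7% of all merged bases (2592.3 of 17602.2 kb). No region of 5000 bp or more was left out for want of an interval in either library, since all 347 such regions were shared. The members were chosen by their width and by the presence of intervals in both libraries, which are measured values, so these and the summit values of the same intervals are given as a description, without a test.

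Marrow cells of adult C57BL/6 mice were grown for 5 days with M-CSF, the growth factor that turns marrow progenitors into macrophages. No genetic alteration is named in the labels for any group. One culture condition was untreated (NT) and the other received LPS, a bacterial cell wall component sensed by Toll-like receptor 4, for 2 h. Each condition had 1 EZH2 library, and the third sample was input DNA, for which no intervals were used here. There is therefore no replicate check of any difference between NT and LPS, and sampling of animals or cultures cannot be told apart from the treatment. The stimulated track is named TLR, and it was taken as the LPS library because that was the one stimulated EZH2 sample, which is a limit on every LPS value below. The summit value of an interval is the whole number that the authors deposited for its highest point. Its unit, the read depth and any scaling between libraries are not given in the sources used here, so a lower LPS value cannot be told apart from a library with fewer reads. ChIP intervals hold no expression, so the identity of the cells was not checked against marker levels.

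EZH2 is the catalytic subunit of polycomb repressive complex 2, which methylates lysine 27 of histone H3 and keeps genes of other cell fates silent. In vertebrates the complex is recruited mainly to CpG islands, and its mark can spread from such a site over many nucleosomes. The widest polycomb domains are known from genes of embryonic patterning, among them the Hox clusters. In macrophages polycomb complexes have been studied both for the silencing of such genes and for the control of inflammatory genes.

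The promoters below are shown because they belong to broad regions that stand out. Uncx, Dlx1, Cbx8 and Hoxa9 are genes of the 4 widest regions, Sp9 is the gene with the highest NT summit value, and Wnt9a has the promoter with most CG. Each runs 5′ to 3′ on the strand of its gene, from 250 bases before to 50 bases after the annotated start, as RefSeq lists promoters on GRCm38.p6, which is the mm10 assembly. CG dinucleotides are in capitals.
Uncx promoter (chr5:139543648-139543947, plus strand): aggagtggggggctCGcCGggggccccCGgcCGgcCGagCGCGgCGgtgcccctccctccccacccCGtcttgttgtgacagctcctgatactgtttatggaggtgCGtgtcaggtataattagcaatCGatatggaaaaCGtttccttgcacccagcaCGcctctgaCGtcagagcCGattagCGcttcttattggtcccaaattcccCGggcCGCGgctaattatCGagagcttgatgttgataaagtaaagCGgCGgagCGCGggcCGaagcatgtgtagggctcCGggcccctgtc
Dlx1 promoter (chr2:71529195-71529494, plus strand): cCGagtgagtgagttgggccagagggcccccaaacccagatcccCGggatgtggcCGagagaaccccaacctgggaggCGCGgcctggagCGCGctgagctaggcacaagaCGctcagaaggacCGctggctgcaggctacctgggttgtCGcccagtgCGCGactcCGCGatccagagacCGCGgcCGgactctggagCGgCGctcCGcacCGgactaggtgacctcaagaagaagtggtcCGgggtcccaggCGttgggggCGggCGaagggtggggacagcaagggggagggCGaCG
Cbx8 promoter (chr11:119040864-119041163, minus strand): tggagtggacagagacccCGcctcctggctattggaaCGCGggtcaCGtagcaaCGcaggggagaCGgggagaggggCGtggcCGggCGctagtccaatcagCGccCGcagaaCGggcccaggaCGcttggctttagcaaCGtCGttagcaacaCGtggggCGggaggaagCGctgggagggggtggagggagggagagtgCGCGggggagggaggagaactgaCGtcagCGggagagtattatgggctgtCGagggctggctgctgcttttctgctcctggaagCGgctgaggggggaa
Sp9 promoter (chr2:73271676-73271975, plus strand): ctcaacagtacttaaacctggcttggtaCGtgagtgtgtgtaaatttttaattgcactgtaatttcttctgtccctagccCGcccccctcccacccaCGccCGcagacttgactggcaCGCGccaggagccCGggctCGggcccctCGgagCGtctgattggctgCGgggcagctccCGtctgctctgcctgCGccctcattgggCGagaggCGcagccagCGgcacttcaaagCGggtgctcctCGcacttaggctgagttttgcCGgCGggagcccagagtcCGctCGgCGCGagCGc
Hoxa9 promoter (chr6:52227321-52227620, minus strand): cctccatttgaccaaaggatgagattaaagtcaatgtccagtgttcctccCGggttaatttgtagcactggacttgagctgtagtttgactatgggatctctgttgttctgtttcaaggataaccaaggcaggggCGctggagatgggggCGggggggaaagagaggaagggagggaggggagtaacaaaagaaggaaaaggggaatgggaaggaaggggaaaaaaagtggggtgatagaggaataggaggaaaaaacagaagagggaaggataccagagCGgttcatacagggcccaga
Wnt9a promoter (chr11:59306680-59306979, plus strand): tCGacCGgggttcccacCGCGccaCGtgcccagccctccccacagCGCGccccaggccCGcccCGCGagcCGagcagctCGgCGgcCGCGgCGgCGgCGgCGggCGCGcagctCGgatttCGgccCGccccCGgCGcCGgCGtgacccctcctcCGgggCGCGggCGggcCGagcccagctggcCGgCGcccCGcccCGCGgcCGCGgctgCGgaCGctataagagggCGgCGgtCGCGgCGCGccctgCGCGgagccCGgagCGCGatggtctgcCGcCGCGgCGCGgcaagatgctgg
Dlx1 and Uncx, both homeobox genes of the embryonic nervous system and skeleton, had 27 and 26 CG per 300 bases, Sp9 had 25 and Cbx8 had 24. Wnt9a, a secreted signalling ligand, had 58, the most of any promoter in a broad region, and the Hoxa9 promoter shown had 4. The latter had the fewest in the widest region, where Hoxa10 had 21, Hoxa3 had 20 and Hoxa7 had 9. A CG reads the same on both strands, so each was counted once.

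Across the 249 listed promoters of 213 genes whose start lay in a broad region, the median was 21 CG per 300 bases (quartiles 14 and 28). The median over all 21263 promoters was 13, and over the 14537 with no EZH2 region at the start it was 6 (quartiles 2 and 17). Promoters in narrower shared regions had a median of 24, as did those under an NT interval alone, and the 72 under an LPS interval alone had 17. Promoters with fewer than 10 CG made up 12% of those in broad regions, 7.40% of those in narrower shared regions and 43.2% of all promoters. A ratio of observed to predicted CG of at least 0.6 was found in 73.5% of promoters in broad regions and in 47.7% of all. Promoters in broad regions were thus richer in CG than promoters in general, but their median was not above that of promoters in narrower regions. Besides Hoxa9, the low end held Lrrc26 with 3 CG, which lies in one region with the glutamate receptor gene Grin1. It also held 1 listed promoter of Hoxd11 with 4, while another of that gene in the same region had 25. The high end held Igf2bp2, an RNA-binding protein of fetal tissues, with 47, and 1 listed promoter of Skor1, a neuronal co-repressor, with 46. Other listed promoters of Skor1 in the same region had 15 and 17.

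**Figure D1:**
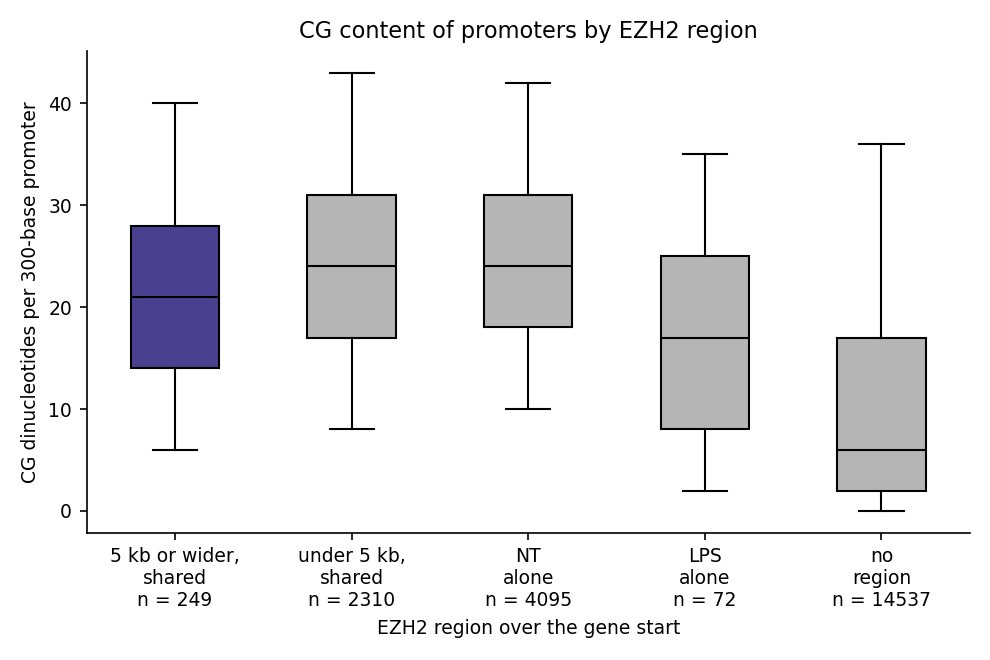
Number of CG dinucleotides (vertical axis, per 300-base promoter) by the EZH2 region that covers the gene start (horizontal axis, with the number of promoters n). Boxes give the median and quartiles and whiskers the central 90% of promoters; promoters in broad regions have a median of 21, against 24 in narrower shared regions and 6 where no region covers the start.

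The broad regions had a median width of 6490 bp (quartiles 5555.5 and 8172.5) and ranged from 5003 to 26358 bp. Of these, 134 were under 6000 bp, 121 from 6000 to under 8000 bp, 44 from 8000 to under 10000 bp, and 48 were 10000 bp or wider. Just inside the width limit were the regions at Ntn1 (5003 bp, NT summit value 129, LPS 70), an axon guidance gene, Smug1 (5008 bp, 36 and 22), a DNA repair gene, and Scarf2 (5022 bp, 94 and 51). Just outside it were Adcy5 (4981 bp, 109 and 58), an adenylyl cyclase gene, Nfia (4978 bp, 80 and 30) and Celsr1 (4976 bp, 68 and 34). The values on both sides of the limit overlap, so the limit marks no break in the data.

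The widest region, 26358 bp at chr6:52210824-52237181, ran from Hoxa3 to Hoxa10, genes that specify position along the body axis. It holds the whole of Hoxa7 and Hoxa9, and 1 interval in each library covered it, with an NT summit value of 167 and an LPS value of 82. The second, 21799 bp at chr5:139534710-139556508, held Uncx, a homeobox gene of the vertebrae, with values of 132 and 71. The third, 21286 bp at chr2:71526417-71547702, held Dlx1 and Dlx2, homeobox genes of forebrain interneurons. Its values were 171 in NT and 56 in LPS. Here 1 NT interval of 21107 bp faced 3 LPS intervals of 9317, 1524 and 10327 bp, which lay so close together that they still covered 99.4% of the region. The fourth, 20468 bp at chr11:119040090-119060557, lay almost wholly upstream of Cbx8, a subunit of polycomb repressive complex 1. It reached 19644 bp upstream of the start and 823 bp downstream, with values of 150 and 56.

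The next 8 regions by width all held a transcription factor or co-repressor gene. At Lbx1, a homeobox gene of migrating muscle precursors, 18426 bp carried values of 178 in NT and 91 in LPS. At Tbx2, a T-box repressor of heart and limb, 18401 bp carried 162 and 66, and at Skor1 17462 bp carried 148 and 69. Ebf3, a gene of neuronal differentiation, had 15561 bp with 89 and 50, and Lhx5, a LIM homeobox gene of the forebrain, had 15220 bp with 87 and 45. Wide regions were not always high ones, since the NT values at Ebf3 and Lhx5 were near the median of all 347. Sp9, a zinc finger gene of limb and forebrain, had 15101 bp at chr2:73266961-73282061 with 253 and 92. Tfap2a, a neural crest gene, had 15031 bp with 138 and 64. The region at Pitx1, a homeobox gene of the hindlimb, was 14844 bp wide with values of 88 and 53, and also held an end of the sperm calcium channel gene Catsper3.

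**Figure D2:**
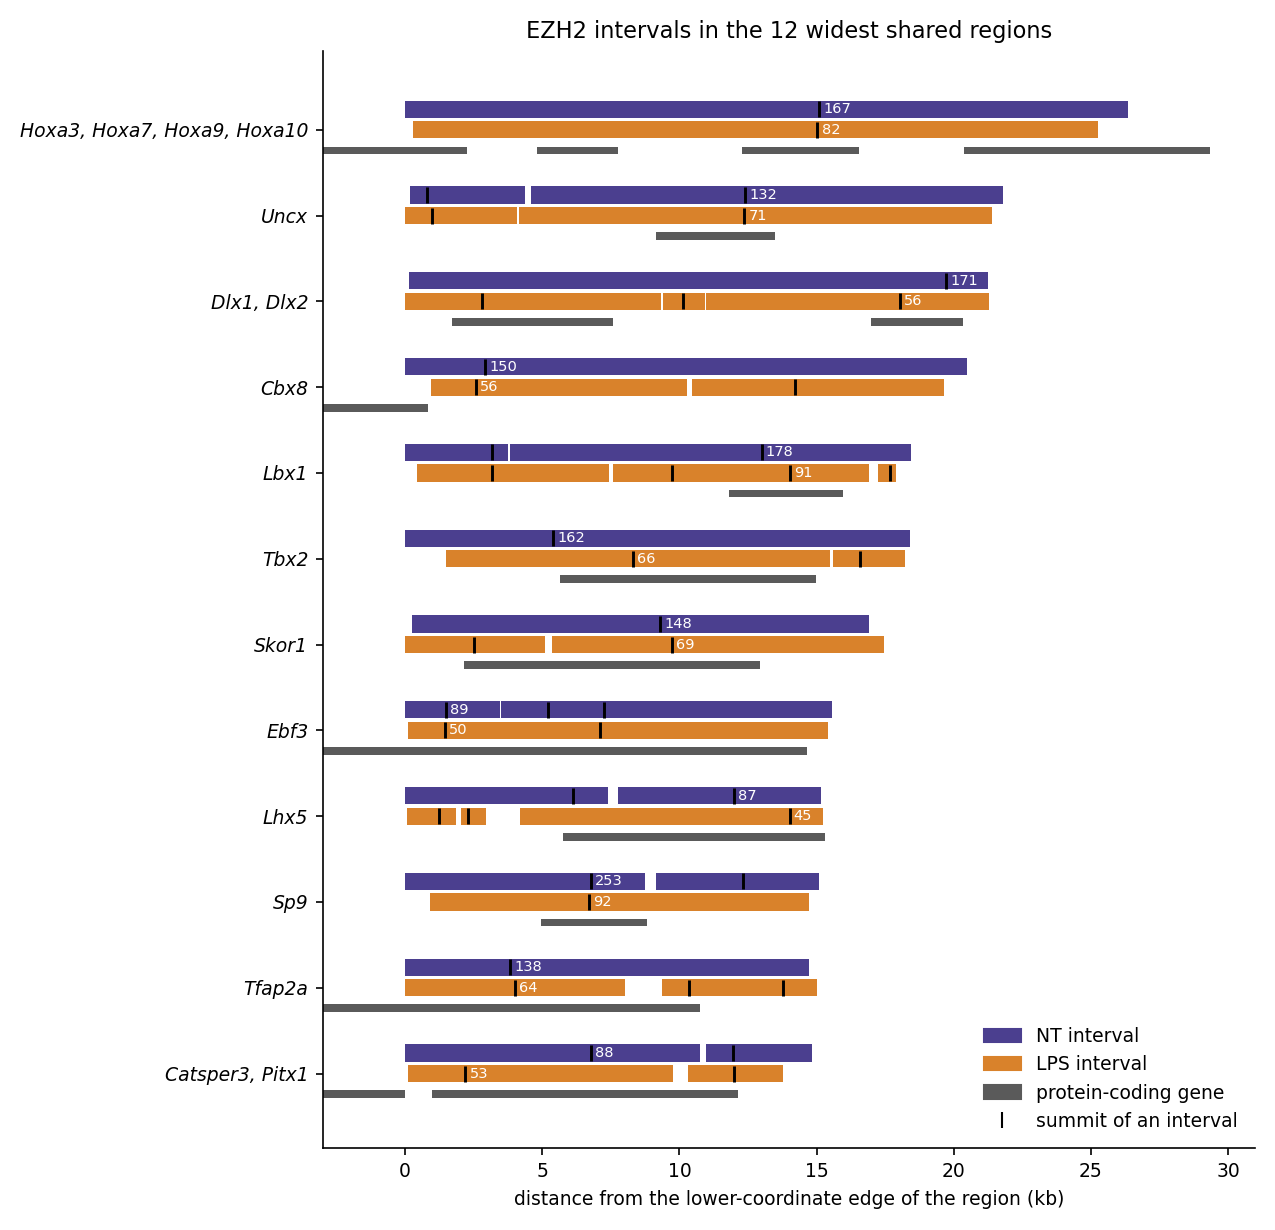
Map of the 12 widest broad regions, named by the genes with an end inside, against the distance from the lower-coordinate edge in kb. Upper bars are NT intervals, middle bars LPS intervals and thin bars protein-coding genes; ticks mark summits and printed numbers the highest summit value of each library, such as 253 in NT and 92 in LPS at Sp9. In 10 of the 12 the LPS library has 2 or more intervals.

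The NT summit values of the 347 regions ranged from 27 to 253, with a median of 78 (quartiles 59 and 102), and the LPS values from 13 to 93, with a median of 41 (quartiles 29.5 and 53). In the 3680 shared regions under 5000 bp the medians were 34 and 16. The highest NT value was at Sp9 (253), followed by Tlx2 (213), a homeobox gene of enteric neurons, Foxl2 (202), a forkhead gene of the ovary, and Hic1 (185), a zinc finger repressor. Lbx1 (178) and Slc30a3 (177), which encodes the zinc transporter of synaptic vesicles, came next. In LPS the highest were Foxl2 (93), Sp9 (92), Lbx1 (91), Nkx2-3 (87), a homeobox gene of gut and spleen, Slc30a3 (85) and Hmx2 (83), a homeobox gene of the inner ear. Of these leading regions, 4 stood in both lists. Across the 347 regions the values of both libraries had a Pearson correlation of 0.89 and a Spearman correlation of 0.89, and width and NT value had 0.42 and 0.34. These correlations describe regions of the same 2 libraries and carry no p, since all regions of a library share its depth and peak calling.

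**Figure D3:**
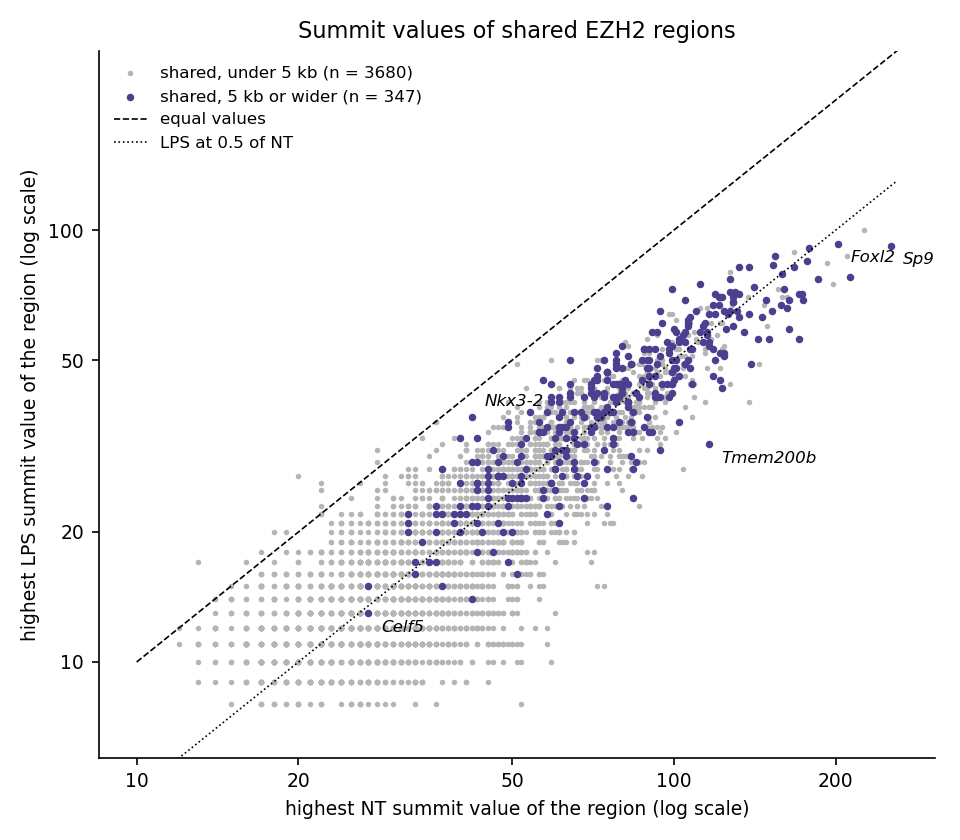
Highest LPS summit value against highest NT summit value of each shared region, both on log scales. Dark points are the 347 broad regions and grey points the 3680 narrower ones; the dashed line marks equal values and the dotted line an LPS value at 0.5 of NT. All dark points lie under the dashed line, with Tmem200b lowest (ratio 0.276) and Nkx3-2 highest (0.881) relative to it.

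The ratio of LPS to NT summit value had a median of 0.523 (quartiles 0.456 and 0.578) and lay between 0.276 and 0.881. None of the 347 broad regions had a higher value in LPS, and 11 of the 3680 narrower ones (0.299%) did, a share at which a count of 0 among 347 is no contrast. Because the median of the narrower regions was 0.5, lower LPS values were shared by the whole list, and what depth and scaling contribute to them was not tested. To compare regions of like height, the ratio was taken within ranges of NT value. At NT values over 30 to 50 the median ratio was 0.562 in 59 broad regions and 0.463 in 1412 narrower ones. At over 50 to 75 it was 0.528 in 103 and 0.474 in 578. At over 75 to 100 it was 0.515 in 90 and 0.461 in 165, and above 100 it was 0.491 in 93 and 0.465 in 59. The broad regions had the higher median in each of these 4 ranges, with quartiles that overlapped those of the narrower regions in each. At NT values up to 30, which held only 2 broad regions, the order was the other way, with 0.519 against 0.545 in 1466 narrower regions. Both sets leave out NT regions with no LPS interval, of which there were 914 of 2385 at NT values over 30 to 50, 27 of 708 at over 50 to 75, and 0 above that. The value taken is the highest of a region's intervals, and a wider region has more places to hold one. The width is that of NT and LPS intervals joined, so a longer LPS interval helps a region to reach 5000 bp. The ratio of broad regions is therefore not independent of the rule, and the difference in medians is no separate result. This limit also holds for regions with 1 interval in each library. With only the regions that had 1 interval in each library, the medians were 0.552 against 0.459, 0.522 against 0.476, 0.494 against 0.467 and 0.497 against 0.466 in the same order, and at NT values up to 30 the 1 broad region had 0.481 against 0.542.

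**Figure D4:**
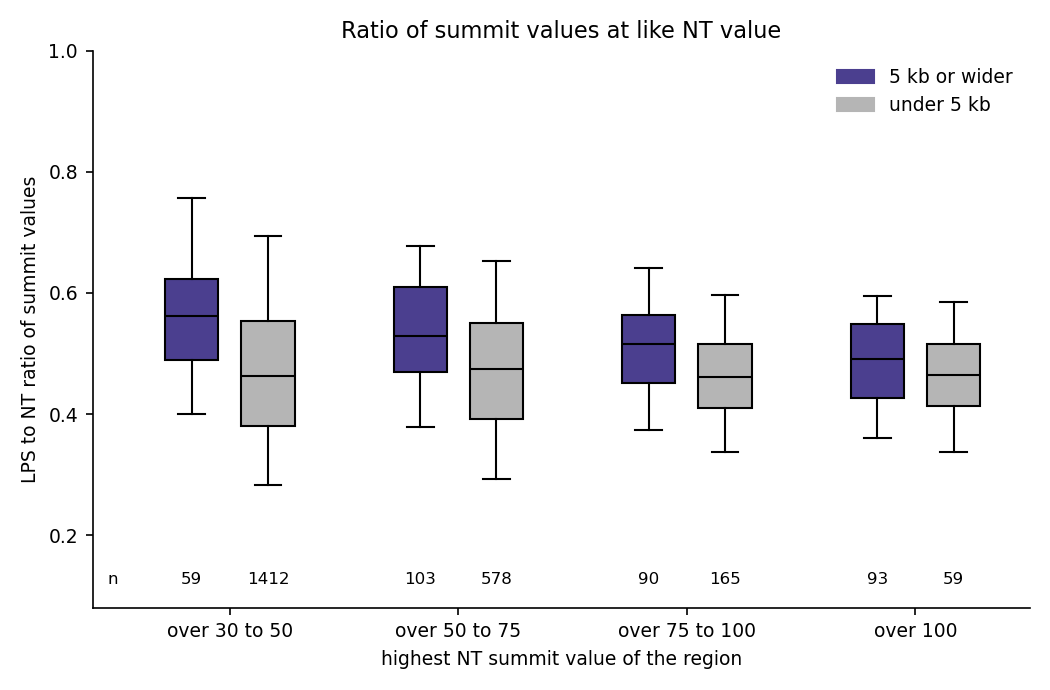
Ratio of LPS to NT summit value (vertical axis) of shared regions in 4 ranges of NT summit value (horizontal axis), with the number of regions under each box; NT values up to 30, with 2 broad regions, are not drawn. Boxes give the median and quartiles and whiskers the central 90% of regions; the median of broad regions (dark) is above that of narrower ones (grey) in each range drawn, from 0.562 against 0.463 at the left to 0.491 against 0.465 at the right.

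The lowest ratio, 0.276, was at Tmem200b and Epb41, which encodes the red cell membrane protein 4.1, where a summit value of 116 in NT stood beside 32 in LPS. Mapk11, a p38 MAP kinase gene, followed with 84 and 24 (0.286). The other end of Mapk11 lay in a separate broad region with 100 and 48 (0.48), shared with Mapk12. Further low ratios were found at 3 homeobox loci. Nkx2-1, a homeobox gene of lung and thyroid, had 51 and 16 (0.314), Dlx1 and Dlx2 had 171 and 56 (0.327), and Gsc, a homeobox gene of the embryonic organizer, had 94 and 31 (0.330). At the other end, Nkx3-2, a homeobox gene of cartilage, had 42 in NT and 37 in LPS (0.881). Slc17a7, a vesicular glutamate transporter gene, had 57 and 45 (0.789). Tmem151b had 64 and 50 (0.781), the predicted gene Gm33099 had 43 and 33 (0.767), and Hoxd12 had 37 and 28 (0.757). The 6 highest ratios thus came from regions with NT values below the median of 78, while the 6 lowest came from NT values between 51 and 171. Over all 347 regions the NT value and the ratio had a Pearson correlation of -0.33 and a Spearman correlation of -0.29, which share the NT value on both axes.

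Both libraries covered most of each region. NT intervals covered a median of 99.7% of a region and LPS intervals 90% (quartiles 79.7 and 96.3). Over all members, 62.9 kb lay outside NT intervals and 322 kb outside LPS intervals. Of the LPS shortfall, 87.6% lay at the outer flanks of the regions and 12.4% in gaps between LPS intervals. LPS intervals covered more bases than NT intervals in 68 of the 347. The lowest LPS cover was at Celf5, an RNA-binding protein gene, at 16.9%. There 1 LPS interval of 917 bp lay in an NT interval of 5414 bp, and the values of 27 and 13 were the lowest of their libraries among the broad regions. Cd248, a gene of stromal cells, was covered to 52.7%, Shank1, a postsynaptic scaffold gene, to 53.5%, and Irs1, an insulin signalling adaptor gene, to 55.0%. Celf5 was the one region with LPS cover under 50%.

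Breadth in 1 library did not always mean 1 long interval. An NT interval of at least 5000 bp was present in 306 regions and an LPS interval of that length in 189, both in 173, and in 25 regions the width came from joining shorter intervals of both libraries. NT had 1 interval in 301 regions, and LPS in 228. LPS had more intervals than NT in 102 regions (29.4%), and NT had more than LPS in 28 (8.07%). Among narrower shared regions LPS had more intervals in 4.54% and NT in 1.60%. The share of regions with 2 or more LPS intervals was 25.4% below 6000 bp, 29.8% from 6000 bp, 40.9% from 8000 bp and 64.6% from 10000 bp. Joining several intervals is 1 way to reach a large width. A higher number of intervals in wider regions is therefore part of the rule and is no result. The most intervals were found at Six3, a homeobox gene of eye and forebrain. Its 2 NT intervals of 10546 and 2316 bp faced 5 LPS intervals of 1099, 4885, 2329, 1600 and 1180 bp with summit values of 13, 21, 27, 20 and 8. Foxe1, a forkhead gene of the thyroid, had 2 NT and 4 LPS intervals with highest values of 146 and 63. Nkx3-2 showed the reverse, with NT intervals of 4065 and 1879 bp and a single LPS interval of 7324 bp. Both summits of a region lay close together, at a median distance of 160 bp, and within 1000 bp in 301 of 347 regions (86.7%).

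Of the 347 regions, 284 held the start or end of a protein-coding gene, 46 others lay inside a gene away from its ends, and 17 met no protein-coding gene. In all, 322 of 21887 protein-coding genes (1.47%) had an end in a broad region, and a further 2419 (11.1%) had one in a narrower shared region only. Counted by any overlap with the gene body there were 362 (1.65%), and by an end within 2500 bp 384 (1.75%). These 322 genes were short, with a median length of 8965.5 bp against 17169 bp over all protein-coding genes, and 82 of them lay whole inside a region. For the 192 regions that held the listed starts of 1 gene, the region reached a median of 2571 bp upstream and 4269 bp downstream of the start. It reached further downstream than upstream in 138 (71.9%), and so did 78.9% of 1830 narrower regions that held the listed starts of 1 gene. The NT summit lay a median of 743 bp downstream of the start, and within 1000 bp of it in 103 of 192 (53.6%). In those narrower regions the median was 200 bp and the share within 1000 bp was 93.3%. Because the members were chosen for their width, a longer distance from start to summit is part of the rule and is no result. The NT summit lay 3207 bp downstream of the start at Uncx and 1819 bp downstream at Sp9, and 2096 bp upstream at Cbx8.

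Genes of developmental transcription factors made up much of the set. Of 351 genes in the 7 lists of such factors, 114 (32.5%) had an end in a broad region, beside 1.47% of all protein-coding genes. By gene body the count was 126, beside 1.65% of all, and by an end within 2500 bp 128, beside 1.75%. The first count lay in 107 of the 347 regions (30.8%), whereas 149 of the 3680 narrower shared regions (4.05%) held such an end. At NT values over 75 to 100 the shares were 32.2% and 9.70%, and above 100 they were 36.6% and 10.2%. Within the broad regions the share was 19.4% below 6000 bp, 26.4% from 6000 bp, 40.9% from 8000 bp and 64.6% from 10000 bp. A wider region can hold more gene ends, and genes of a cluster share a region, so these counts are not of independent genes. Regions with a gene of these lists had a median ratio of 0.527 and those without 0.519, while LPS cover was 93.0% and 87.1%. Regions with only transcription factor genes outside these lists, such as Otp, were counted as without. The lists were drawn up with earlier results of these data known, so their counts describe the regions and are no separate support for a theme.

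**Figure D5:**
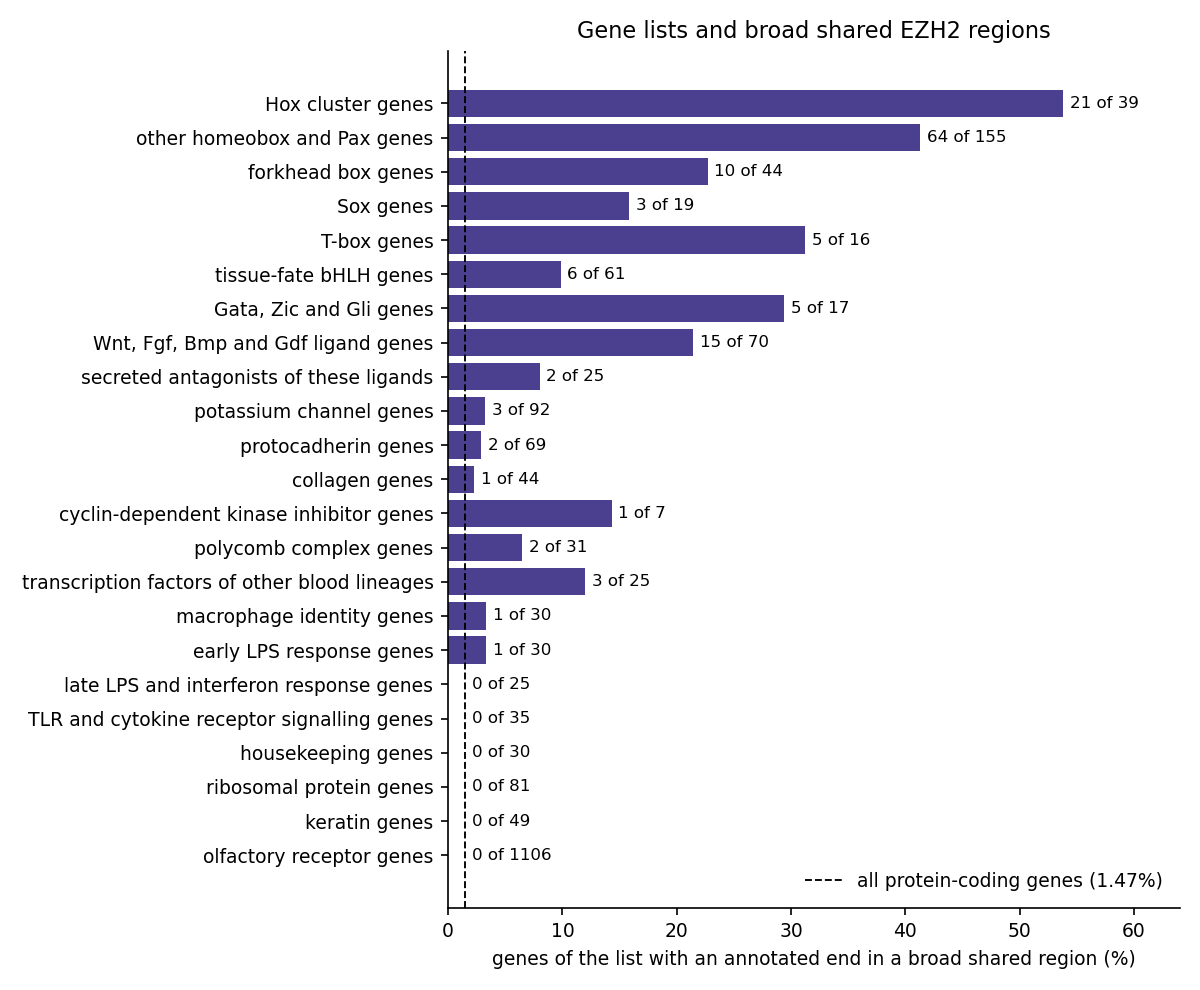
Share of the genes of each list with an annotated end in a broad shared region (horizontal axis, percent), with the counts printed beside each bar. The dashed line is the share over all protein-coding genes, 1.47%; Hox cluster genes reach 53.8% (21 of 39), and 6 lists have no gene in a broad region.

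Among Hox cluster genes, 21 of 39 (53.8%) had an end in a broad region, beside 1.47% of all protein-coding genes. Their median LPS to NT ratio was 0.550. With 1 region kept per gene, these genes lay in 13 broad regions. Hoxb9 and Hoxc6 each had ends in more than 1 broad region, and the further regions are not among the 13. The Hoxa genes in broad regions were Hoxa3, Hoxa7, Hoxa9, Hoxa10, Hoxa11 and Hoxa13. Hoxa11 (12788 bp, 106 in NT and 60 in LPS) and Hoxa13 (6820 bp, 90 and 34) had regions of their own next to the widest one. Hoxb5 and Hoxb6 shared a region of 9852 bp (90 and 46), and Hoxb7 and Hoxb8 one of 12640 bp (80 and 44). Hoxb9 touched the latter with only 0.019% of its length. Its other end lay in a separate broad region that began at chr11:96269001, with 91 in NT and 34 in LPS. In the Hoxc cluster the regions were shorter, from 5080 bp at Hoxc12 (43 and 26) to 7019 bp at Hoxc5 and Hoxc6 (60 and 28). In the Hoxd cluster Hoxd9 had 131 and 65, whereas Hoxd12 had 37 and 28. Ratios in the clusters ran from 0.374 at this separate Hoxb9 region and 0.378 at Hoxa13 to 0.757 at Hoxd12. This spread was close to that of the central 95% of all broad regions (0.343 to 0.721).

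The list of other homeobox and Pax genes gave the largest count, 64 of 155 (41.3%), beside 1.47% of all protein-coding genes. Their median ratio was 0.526, with a range from 0.314 to 0.881. The list does not hold every homeobox gene. Otp (57 in NT and 24 in LPS) and Dmbx1 (61 and 35) had an end in a broad region but were in none of the lists. Of the T-box genes 5 of 16 (31.2%) had an end in a broad region, of the Gata, Zic and Gli genes 5 of 17 (29.4%), and of the forkhead genes 10 of 44 (22.7%). Foxd3, a neural crest gene, had 91 in NT and 58 in LPS over 10883 bp, and Foxc1, a gene of eye and vessels, had 123 and 70. Tbx4, a hindlimb gene, had 52 and 30 over 11201 bp, less than a neighbouring region at Tbx2 with 162 and 66. Tbx1, a gene of the pharyngeal arches, had ends in more than 1 broad region. The wider had 77 and 41, and the one with its listed starts had 61 and 23 (ratio 0.377). Tbx3 had 43 and 26. Gata2, a factor of blood stem cells and mast cells, had 72 and 45 over 11509 bp. Gata6, a factor of endoderm and of peritoneal macrophages, had 89 and 48 over 8836 bp. Zic2, a forebrain gene, had 119 and 64, and Zic1 and Zic4 shared a region with 60 and 25. Of 61 tissue-fate bHLH genes, 6 (9.84%) had an end in a broad region. They were led by Neurod2 (116 and 55) and Olig2 (112 and 58), genes of neurons and oligodendrocytes. Sim2 had 122 and 70, and Hes1, a Notch target, 43 and 21. Of 19 Sox genes there were 3 (15.8%), namely Sox8 (56 and 34), Sox9 (40 and 26) and Sox1 (52 and 26). A further 12 Sox genes had an end in a narrower shared region only, a share above the 11.1% of all protein-coding genes.

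Secreted ligands of embryonic signalling were the next group, with 15 of 70 Wnt, Fgf, Bmp, Gdf and hedgehog genes. This was 21.4%, beside 1.47% of all protein-coding genes, and the median ratio was 0.556. Fgf8, a ligand of limb and brain organizers, had a summit value of 102 in NT and 56 in LPS, and Fgf9 had 78 and 49. Gdf7, a ligand of the roof plate, had 77 and 44. Wnt10a had 62 and 38 in the wider of its broad regions, Wnt11 had 106 and 50, and Wnt1 had 71 and 41. Ihh, a hedgehog ligand of growing bone, had 82 and 44, and Dhh, the hedgehog ligand of testis and nerve sheath, had 49 and 36, the highest ratio of the group at 0.735. Wnt3 and Wnt9b shared a region of 5793 bp with 70 and 35. Of 25 antagonists of these ligands there were 2 (8%), the BMP inhibitor Nog (85 and 29, ratio 0.341) and the activin inhibitor Fst (58 and 35, 0.603). In a list of this length the background amounts to less than 1 gene, so a count of 2 carries little weight.

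Lists of structural and channel genes had shares nearer the 1.47% of all protein-coding genes. Potassium channel genes numbered 3 of 92 (3.26%), among them Kcnh3 (90 in NT and 44 in LPS) and Kcnh2 (48 and 27), the latter a channel of cardiac repolarization. Of 69 protocadherin genes there were 2, Pcdh1 (129 and 68) and Pcdh17 (71 and 38), and of 44 collagen genes 1, Col2a1 of cartilage (76 and 38). Of 7 cyclin-dependent kinase inhibitor genes there was 1, Cdkn2a, a classical polycomb target that halts the cell cycle, with 47 and 27 over 6169 bp. Of 31 polycomb genes there were 2, among them Cbx8. Its wider region (150 and 56) had a ratio of 0.373, below the lower quartile of all broad regions. The other end of Cbx8 lay in a separate broad region with 68 and 37 (0.544). Keratin genes (49), olfactory receptor genes (1106) and ribosomal protein genes (81) had none in a broad region. The first and second of these had none in a narrower shared region either. Of the 81 ribosomal protein genes 17 had an end in a narrower shared region only, a share above the 11.1% of all protein-coding genes.

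Genes of macrophages and of the LPS response gave counts of 0 or 1 per list. In lists of this length the 1.47% of all protein-coding genes amounts to less than 1 gene, so these counts cannot be read as more or fewer than the background. Of 30 macrophage identity genes 1 had an end in a broad region. Of 30 early LPS response genes there was 1, Egr3, an immediate early transcription factor, with 152 and 65 over 6971 bp (ratio 0.428). None of 25 late LPS and interferon response genes, 35 genes of TLR and cytokine receptor signalling or 30 housekeeping genes had an end in a broad region. In narrower shared regions only, which held 11.1% of all protein-coding genes, there were 5 of the 30 macrophage identity genes, 10 of the 30 early and 3 of the 25 late LPS response genes. There were also 2 of the 35 signalling genes and 8 of the 30 housekeeping genes. The macrophage identity, early LPS response and housekeeping genes were above that share, the late LPS response genes near it and the signalling genes below it. These lists are short, so a few genes move such a share. Of 25 transcription factors of other blood lineages there were 3, Gata2, the T and NK cell factor Eomes (60 and 28) and the T cell factor Bcl11b (27 and 15). Bcl11b had the lowest NT value of the broad regions, together with Celf5.

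Of the 322 genes, 179 were in none of the lists, and those named here were chosen after their values were seen. All of Igf2bp1 (159 in NT and 79 in LPS), Igf2bp2 (132 and 63) and Igf2bp3 (92 and 41), RNA-binding proteins of the embryo, had an end in a broad region. So did Lin28a (65 and 34) and Trim71 (79 and 41), which act on let-7 miRNA and on mRNA in stem cells, and Mycn (71 and 45). Genes of synaptic transmission included Slc32a1 (98 and 53), the vesicular GABA transporter, Gad1 (47 and 27), which makes GABA, and the glutamate receptor genes Grin1 (59 and 30), Grin2c (81 and 45), Grin2d (97 and 55) and Grm4 (106 and 61). Epop (129 and 68), which binds polycomb repressive complex 2, and Bahcc1 (139 and 49, ratio 0.353), a chromatin protein, were further members. Genes with known functions in immune or inflammatory cells included Nr4a3 (65 and 28), Dusp4 (40 and 22), Tril (78 and 41) and Dll4 (84 and 38). Their ratios of 0.431, 0.550, 0.526 and 0.452 lay inside the central 95% of the broad regions, from 0.343 to 0.721.

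Most broad regions stood alone, with 250 of 347 more than 100000 bp from the next. The other 97 formed 38 groups, of which 26 were pairs. The largest group was of 6 regions over 99.2 kb of the Hoxc cluster, of which 35.7% was covered. The Hoxa cluster with Evx1 had 4 over 110 kb (52.2% covered), the Hoxd cluster with Evx2 had 4 over 47.4 kb (54.1%), and the Hoxb cluster 3 over 37.3 kb (75.4%). The 5 regions from Wnt10a to Ihh took in Cdk5r2 and Fev, with NT values from 43 to 121. The 4 from Wnt10b and Wnt1 to Dhh had NT values from 49 to 89. Gsx1, Pdx1 and Cdx2, the ParaHox cluster, had 3 regions with NT values from 44 to 61 and LPS values from 20 to 40, lower than the widest Hoxa region. By number chromosome 11 held most, with 42 regions (4.85% of its merged regions), then chromosome 2 with 37 (4.34%), beside 3.55% over all chromosomes. By share chromosome 15 was highest, with 25 of 426 merged regions (5.87%). The X chromosome held 1 of 158 merged regions (0.633%).

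The 17 regions without a protein-coding gene and the 46 inside genes completed the set. The widest without a gene, 12121 bp at chr6:30168941-30181061, held the miRNA genes Mir183 and Mir96 and lay 15482 bp from Nrf1. Its summit values of 158 in NT and 67 in LPS (ratio 0.424) were above the upper quartiles of the broad regions. Others held Mir124a-1 (84 and 34), Mir124a-3 (99 and 73), Mir9-3 (66 and 32) and Mir129-2 (66 and 27), miRNA genes known from neurons, and 1 lay 2269 bp from Sox1 over the non-coding RNA gene Sox1ot (62 and 27). Of the regions inside genes the widest was at Lhx2, a LIM homeobox gene of forebrain and eye, with 14188 bp and values of 122 and 45. Pax2 and Srcin1 had 2 such regions each. Those at Pax2 had values of 79 and 44 and of 39 and 22, and those at Srcin1 had 125 and 59 and 130 and 72.

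In all, 15 of 1228 miRNA genes (1.22%) met 10 of the broad regions, beside 1.65% of protein-coding genes counted in the same way, so the share was near the background. Mature sequences were in the RefSeq miRNA table of GRCm38.p6 for 10 of the 15. Those below are shown as the products of regions with high values or without a protein-coding gene, 5′ to 3′, with the seed (bases 2 to 8) in capitals.
miR-183-5p: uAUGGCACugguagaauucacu
miR-96-5p: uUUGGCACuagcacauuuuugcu
miR-132-3p: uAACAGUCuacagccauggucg
miR-212-3p: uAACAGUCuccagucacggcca
miR-196b-5p: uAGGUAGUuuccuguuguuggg
miR-9-5p: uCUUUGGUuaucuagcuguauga
miR-129-5p: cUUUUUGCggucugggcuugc
miR-132-3p and miR-212-3p share the seed AACAGUC, and their genes lie next to each other in the region at Hic1 (chr11:75164494-75174473, 9980 bp), which had 185 in NT and 77 in LPS. The other sequences each have a seed of their own. Mir196b lies between Hoxa9 and Hoxa10 in the widest region, and Mir615 lies in the region at Hoxc5 and Hoxc6 (60 and 28). The ChIP intervals do not show whether any of these miRNAs was made.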

How the data were processed

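EZH2 ChIP-seq was read from 1 deposited track file with 5 tracks, which were intervals and summits of each EZH2 library and 1 track of merged regions. Per the submitters' processing notes, BWA, SICER and mm10 were used, and versions, roles, settings, duplicate removal and the use of the input are not given in the sources used here. The score of each interval is a whole number deposited by the authors for its summit, in a unit that is not given. BED starts and ends gave the positions, which are printed 1-based on mm10. Intervals were listed per library (9643 in NT and 4651 in LPS), and the merged regions equalled the union of both lists.

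Regions, cover, ratios and gene counts were computed with Python 3.11.15, numpy 2.4.6 and pandas 2.3.3, and figures with matplotlib 3.10.9. The region rule and the ratio were tested on simulated intervals, with at most 1 per library at each site. Regions joined from several intervals of a library were not simulated. Gene ends came from a RefSeq table of GRCm38.p6, and gene starts with strand from the RefSeq promoter table, which held 218 of the 322 genes. With 1 library per condition no test was possible. The members, the 23 gene lists and the genes named were chosen with earlier results of these data known. Named were genes at the 12 widest regions, at the 6 highest NT and LPS values, at the 6 lowest and highest ratios, at the 4 lowest LPS covers and highest interval numbers, at 3 regions on each side of the width limit, and up to 4 per list with the widest regions. Genes of the Hox clusters, ligands, groups and regions inside or outside genes beyond that rule were named after their values were seen. Some genes that the rule takes are not reported here.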

Additional observations from a re-analysis of the deposited data

How the results depend on the processing

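No paired analysis was possible because NT and LPS are single libraries, and no result came from a test. Without replicates, a count was taken as moved beyond 1.5 times and a median beyond 1.1 times the reported value. By these limits 64 of 88 alternatives for the main results stayed and 24 moved. For the single gene lists 192 of 253 stayed and 61 moved.

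The number of broad regions, 347, was 627 with a width limit of 4000 bp, 110 with 7500 bp and 48 with 10000 bp. It was 189 when an LPS interval alone had to reach 5000 bp, and 204 with regions of 1 interval in each library, an alternative chosen after seeing the data. The genes with an end inside, 322, were 572, 111 and 54 at the same 3 widths, 174 with the LPS interval, 193 with 1 interval in each library, and 493 with regions under 2000 bp apart joined. The developmental transcription factor genes, 114, were 61 at 7500 bp, 37 at 10000 bp and 59 with 1 interval in each library. The median NT value, 78, was 92.5 at 7500 bp, 100 at 10000 bp, 87 with the LPS interval and 68 after joining. The median LPS value, 41, was 36 at 4000 bp, 48 at 7500 bp, 50 at 10000 bp and 35.5 after joining, and the median LPS cover, 90%, was 77.8% after joining. The median CG content of promoters of genes with either end inside, 19, was 21 with the start inside. These alternatives change which regions or promoters are counted. The median ratio of 0.523 stayed between 0.492 and 0.523 under every alternative run. Read depth is unknown, so no limit on the detection of a weaker or narrower interval can be given.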
